A study of Mus musculus with 5 samples.

Results

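The genes described here encode the proteins of the cytosolic ribosome. They were taken from the array annotation as all genes whose symbol begins with Rpl or Rps followed by a digit, together with Rplp0, Rplp1, Rplp2 and Rpsa. Rps6k kinases and pseudogenes were left out, and only probe sets listing a single gene symbol were used. This gave 63 of the 19938 genes tested, 38 named for the large subunit and 25 for the small one. Each gene is represented by its probe set with the highest mean signal. Another 20 symbols of the same kind, among them Rpl3, Rpl11, Rpl39 and Rps27, occur on the arrays only in probe sets that list several genes and were not analysed here.

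The series measured RNA from pancreatic islet cells that had been separated by flow cytometry into cells positive and cells negative for Flattop, the product of Cfap126. All cells came from untreated C57BL/6 mice aged 8 to 12 weeks, of undetermined sex, and all were heterozygous for Flattop (FVR/+), so both fractions share that genotype. Each array carried amplified RNA from a pool of 4 to 6 mice, with 3 arrays of Flattop-positive and 2 of Flattop-negative cells. The labels do not say whether the pools of different arrays hold different mice, so the p-values measure the spread between these samples, which may be technical in part.

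Signals are log2 values after RMA, a method that corrects background, equalises the distribution of probe signals between arrays and summarises each probe set. The gene values used here still differed in spread. Over all genes their SD was 1.93, 1.83 and 1.86 on the Flattop-positive arrays and 1.65 and 1.63 on the Flattop-negative ones. What this narrower spread does to the differences of bright genes was not tested. Cfap126 checked the labels: Flattop-positive arrays had 6.07, 6.07 and 6.24 and Flattop-negative ones 5.52 and 5.44, without overlap (log2 difference 0.64 ± 0.18 SE, limma adjusted p = 0.274). Flattop-negative replicate 1 stood apart in the ribosomal genes. Over the 63 genes it correlated at r = 0.855 to 0.856 with the Flattop-positive arrays and at 0.842 with Flattop-negative replicate 2, whereas replicate 2 correlated at 0.984 to 0.985 with the Flattop-positive arrays. Over all genes these values were 0.896 to 0.9145, 0.846, and 0.915 to 0.937. The low correlation between the Flattop-negative arrays was thus not particular to the ribosomal genes. These coefficients are across genes, which are not independent replicates. That array is therefore shown apart throughout, and results are given with and without it. Olfactory receptor genes served as a floor: their 95th percentile was 4.29 to 4.45 for Flattop-positive and 4.75 and 4.86 for Flattop-negative arrays.

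A ribosome is built from a small subunit, which reads the messenger RNA, and a large subunit, which joins amino acids. Each subunit is an RNA scaffold covered by many proteins that are made in matched amounts and assembled in the nucleolus. The messenger RNAs of most of these proteins begin with a run of pyrimidines, the TOP element, through which their translation follows the growth kinase mTORC1 and the binding protein Larp1. β-cells carry a heavy load of protein synthesis, since insulin makes up a large part of what they produce.

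No ribosomal protein gene passed the test over all genes. The 63 genes had a median log2 difference of 0.51 between Flattop-positive and Flattop-negative arrays, against -0.10 over all genes and 0.55 over the 558 other genes with a mean signal of 9 or more. With an adjusted p under 0.05 as the threshold, limma called 0 of 63 (smallest adjusted p = 0.208) and 0% of all genes. At an unadjusted p under 0.05, 6 members (9.52%) lay higher and 0 lower in Flattop-positive arrays, where the background was 8.48% of all genes higher and 5.37% lower. Among the 558 other bright genes 29.7% lay higher at that threshold, so the share of the ribosomal genes was near that of all genes and below that of other bright genes. The match in signal is rough, since those genes have a median mean signal of 9.59 and the members one of 10.99. The 6 became 2, 5 and 3 when Flattop-positive replicate 1, 2 or 3 was left out. The background in these fits was 4.66%, 5.64% and 7.71% of all genes, and 17.2%, 22.8% and 20.4% of the other bright genes. The groups did not overlap for 20 members (31.7%) that were higher and 3 (4.76%) that were lower in Flattop-positive arrays. The backgrounds were 13.7% and 21.0% of all genes, and 40.1% and 1.61% of the other bright genes. That balance turned with the scaling: after cyclic loess normalisation 3 members were higher and 14 lower without overlap (13.6% and 11.4% of all genes, 22.2% and 11.3% of the other bright genes). With arrays centred on their medians 32 were higher and 0 lower (21.8% and 9.49% of all genes, 48.4% and 0.358% of the other bright genes). Centring also moved the median of all genes from -0.10 to 0.075. Relative to the median of all genes the members' median was 0.62 as deposited and when centred, 0.27 after repeated quantile normalisation and 0.19 after cyclic loess. The median of the other bright genes, taken without that reference, was 0.55 as deposited and 0.72 when centred. It was 0.15 after repeated quantile normalisation and 0.11 after cyclic loess.

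The difference came mainly from 1 array. The median member signal was 11.15, 11.03 and 11.25 on the Flattop-positive arrays, 9.82 on Flattop-negative replicate 1 and 11.07 on Flattop-negative replicate 2. Replicate 1 was thus low, while replicate 2 lay inside the Flattop-positive range. Without replicate 1 the members' median difference was 0.11, and limma called 0 of 63 at the adjusted threshold (smallest adjusted p = 0.0958). At an unadjusted p under 0.05 that fit had 6 members higher and 0 lower, where the backgrounds were 13.0% and 13.7%. Without replicate 2 the median difference was 0.66, and 14 members passed the adjusted threshold, all higher in Flattop-positive arrays (22.2%, background 1.81%, and 13.6% of the other bright genes). In the lower direction 0 members passed (background 0.371%). In the fits without replicate 1 and without replicate 2, the lone remaining Flattop-negative array is assumed to vary like the other group. In bulk RNA, fewer cells of a type and less RNA per cell cannot be told apart.

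**Figure D1:**
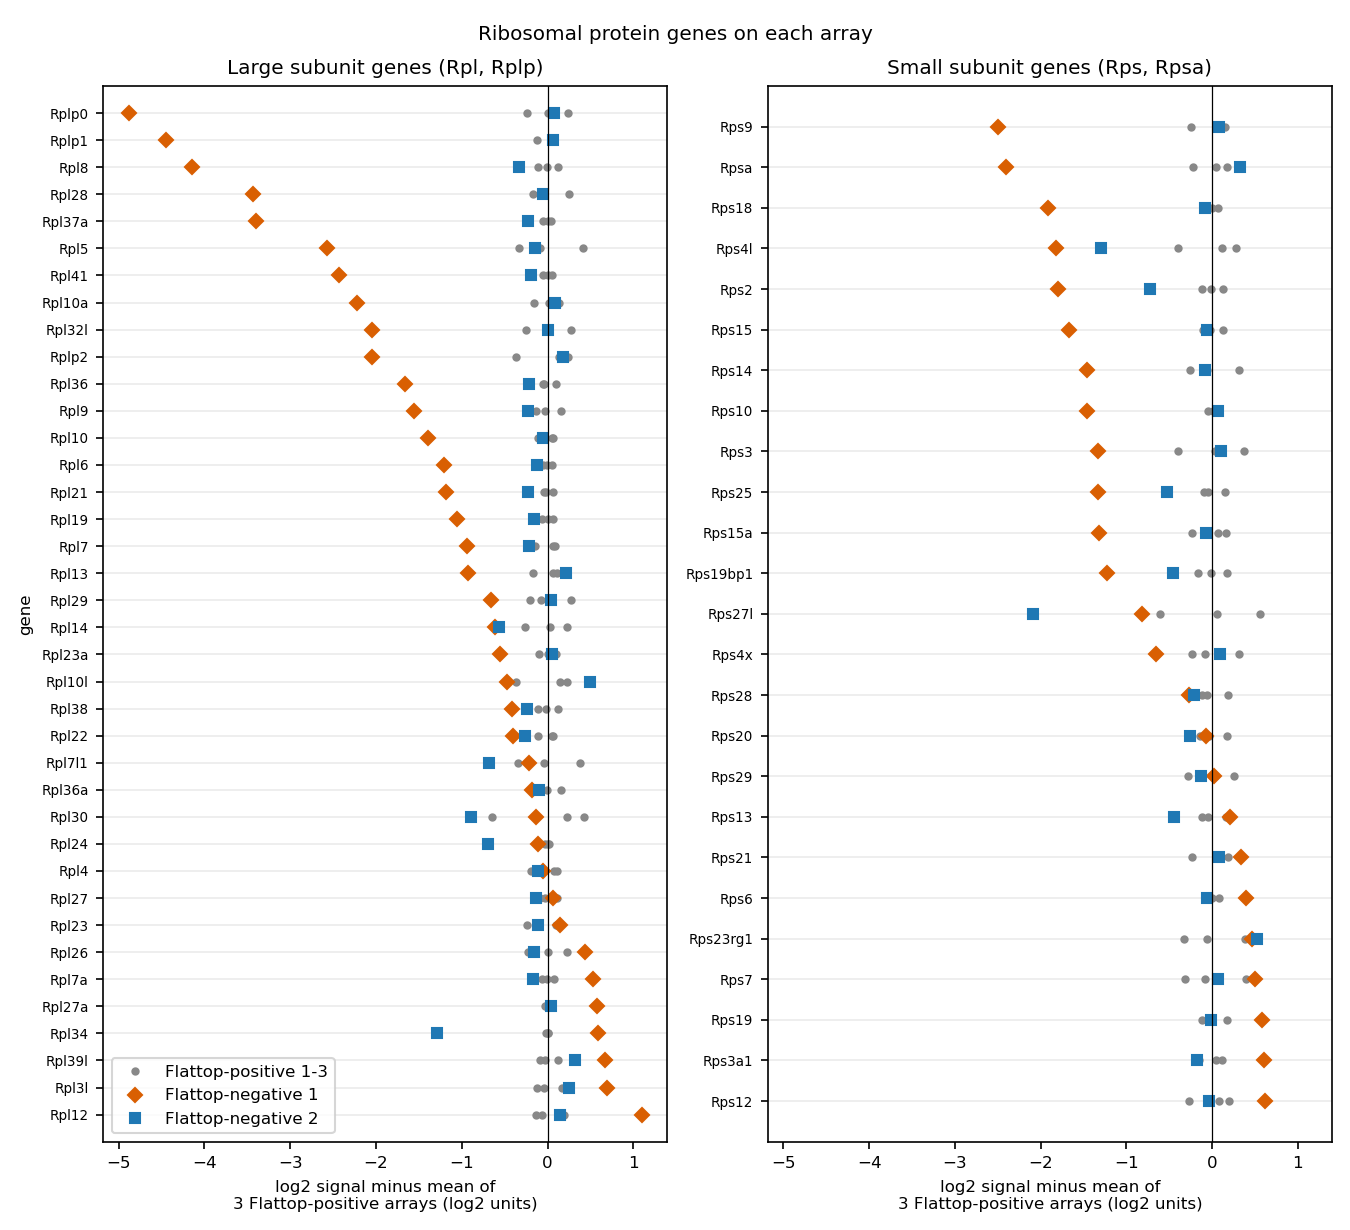
Each of the 63 genes on every array, as its log2 signal minus the mean of the 3 Flattop-positive arrays (x axis, log2 units), with large subunit genes on the left and small subunit genes on the right, sorted by Flattop-negative replicate 1. Grey circles are the Flattop-positive arrays, blue squares Flattop-negative replicate 2, which mostly sit near 0, and orange diamonds Flattop-negative replicate 1, which spread from far below 0 (Rplp0) to above it (Rpl12).

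Flattop-negative replicate 1 was low for many members but not for all, so its profile was spread out rather than shifted as a block. It was the lowest of the 5 arrays for 39 of 63 genes (61.9%, background 24.1%, and 49.8% of the other bright genes). It was the highest for 15 genes (23.8%, background 28.5%), and in 1, Rpl12, it lay at least 1 log2 unit above the mean of the other 4 (background 5.77%). In 28 genes it lay at least 1 log2 unit below the mean of the other 4 arrays (44.4%, background 8.72%, and 36.9% of the other bright genes), and in 12 at least 2 units below (19.0%, background 1.52%, and 13.1% of the other bright genes). Among the 46 ribosomal protein genes proper with a mean signal of 9 or more, signals on this array had an SD of 1.48 across genes, against 0.70 to 0.75 on the other 4. Shortfalls of 2 units or more concerned 10 of the 38 large subunit genes and 2 of the 25 small subunit genes, while shortfalls of 1 unit or more concerned 16 and 12 of them. These counts rest on the brightest probe set of each gene. On other probe sets further genes fell short by over 2 units. Among them were Rps14 (-4.13), Rps15 (-4.27) and Rps2 (-3.11) of the small subunit and Rpl13 (-3.24) of the large one.

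The pyrimidine run was looked for at the transcription starts. RefSeq starts on GRCm38.p6 were listed for 51 of the 63 genes. Of these, 10 (19.6%) began with a C that opens a run of at least 5 pyrimidines, against 3.01% of the 27025 genes with a listed start. The windows below, of 30 bases centred on the start and written 5′ to 3′, show 6 of the 10, chosen to span the range of shifts on Flattop-negative replicate 1; capitals mark the pyrimidine run from the first transcribed base on.
Rpl28: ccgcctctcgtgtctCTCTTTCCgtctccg
Rplp2: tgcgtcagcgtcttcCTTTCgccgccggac
Rps18: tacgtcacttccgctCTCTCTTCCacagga
Rps10: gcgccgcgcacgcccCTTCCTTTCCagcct
Rpl38: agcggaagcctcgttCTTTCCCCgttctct
Rps6: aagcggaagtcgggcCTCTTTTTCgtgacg

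These windows lie at chr7:4792950-4792979 (plus strand) for Rpl28 and chr7:141447636-141447665 (plus) for Rplp2. Those of Rps18 and Rps10 lie at chr17:33955651-33955680 and chr17:27635230-27635259, both on the minus strand. Rpl38 has chr11:114668565-114668594 (plus) and Rps6 chr4:86857353-86857382 (minus). From the first to the last, their shifts on Flattop-negative replicate 1 against the mean of the other arrays were -3.43, -2.09, -1.90, -1.48, -0.35 and 0.41. Over all 10 genes with such a start the median shift was -1.39 (range -3.43 to 0.41), and over the 41 without it -0.29 (range -4.90 to 1.06). The ranges overlapped, and the difference between the medians is a description that was not tested. RefSeq starts are not measured starts in these cells, so a gene without the run in its window may still have it.

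Other elements were searched from 250 bases before to 50 after the start. The letters CCGGAAG, a core of ETS factor sites, were found on either strand in 19 of 51 members (37.3%) against 9.93% of all genes. GCCATNTT, part of the YY1 motif, was found on either strand in 9 members (17.6%, against 6.96%). CTTTCC, read as transcribed, was found in 17 members (33.3%, against 16.01%) and can overlap the pyrimidine run. TATAAA, read as transcribed, was found in 5 members (9.80%, against 9.77%). Members with CCGGAAG had a median shift on Flattop-negative replicate 1 of -0.35 and those without it -0.53. The medians with and without were -0.22 and -0.63 for GCCATNTT, -0.35 and -0.53 for CTTTCC, and -1.62 and -0.41 for TATAAA, the last with 5 genes from -4.90 to -0.15. For all 4 motifs the ranges with and without overlapped, and no difference was tested.

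The stalk proteins of the large subunit included the members furthest down on that array. Rplp0, the base of the stalk that recruits elongation factors, had 11.41, 11.17 and 11.65 on the Flattop-positive arrays, 6.53 on Flattop-negative replicate 1 and 11.48 on replicate 2. Replicate 1 lay 29.8-fold below the mean of the other 4 arrays, and replicate 2 was inside the Flattop-positive range. The size depended on the probe set: the other one of Rplp0 had 9.997, 9.72 and 10.42 against 7.16 and 10.10. Its log2 shift on replicate 1 was -2.90, against -4.90 on the brighter probe set. Rplp1, which binds Rplp0 as a dimer with Rplp2, had 12.66, 12.47 and 12.66 against 8.14 and 12.66. Rplp2 had 6.503, 6.40 and 5.90 against 4.23, which is below the floor, and 6.45. In all 3 stalk genes replicate 1 was the low array by over 1 unit and the groups overlapped through replicate 2. The log2 differences were 2.40 ± 1.37 for Rplp0 and 2.19 ± 1.25 for Rplp1 (SE; limma adjusted p = 0.469 for both). For Rplp2, with the floor in place of the value below it, the difference was at least 0.67 (limma adjusted p = 0.536). Without replicate 1 the 3 differences were -0.073, -0.066 and -0.18, so their direction rested on that array. Without replicate 2 they were 4.88, 4.45 and at least 1.52, of which the first 2 passed (adjusted p = 0.0412 each).

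Other large subunit genes were low mainly on the same array. Rpl8, a protein near the peptidyl transferase centre, had 10.76, 10.66 and 10.89 on the Flattop-positive arrays, 6.62 on Flattop-negative replicate 1 and 10.44 on replicate 2. Here both Flattop-negative arrays lay below all Flattop-positive ones, replicate 2 by a small step (log2 difference 2.24 ± 1.06 SE, adjusted p = 0.410). The difference was 0.33 without replicate 1 and 4.15 without replicate 2. Rpl37a had 11.76, 11.67 and 11.73 against 8.32 and 11.49, again without overlap (1.82 ± 0.89 SE, adjusted p = 0.421). It came to 0.23 without replicate 1 and 3.40 without replicate 2. Rpl28 had 11.86, 11.77 and 12.18 against 8.499 and 11.88, with overlap (1.75 ± 0.95 SE, adjusted p = 0.457), and 0.054 without replicate 1.

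Rpl5, which with Rpl11 and the small ribosomal RNA of the large subunit binds Mdm2 when assembly is disturbed, had 10.33, 10.08 and 10.82 against 7.84 and 10.27. Its difference was 1.36 ± 0.72 (SE, adjusted p = 0.447), and 0.14 without replicate 1. Rpl41, the shortest protein of the ribosome, had 12.78, 12.67 and 12.72 against 10.29 and 12.53. Its 3 probe sets hold identical values on every array and count as 1 measurement. Its difference was 1.32 ± 0.64 (SE, adjusted p = 0.420), and 0.19 without replicate 1. Rpl10, which joins the large subunit late in its assembly, had 12.40, 12.23 and 12.39 against 10.95 and 12.28 (0.72 ± 0.41 SE, adjusted p = 0.466), and 0.057 without replicate 1. In each of these genes replicate 2 lay within 0.2 units of the mean of the Flattop-positive arrays.

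In the small subunit, Rpsa, the laminin receptor homologue at the surface of the subunit, had 12.13, 11.73 and 12.00 on the Flattop-positive arrays, 9.55 on Flattop-negative replicate 1 and 12.28 on replicate 2. The Flattop-negative arrays thus lay on opposite sides of the Flattop-positive ones (1.04 ± 0.78 SE, adjusted p = 0.553), with -0.33 without replicate 1 and 2.41 without replicate 2. Rps2, a protein at the entrance of the messenger RNA channel, had 11.31, 11.06 and 11.16 against 9.38 and 10.45. Here both Flattop-negative arrays were low (1.26 ± 0.35 SE, unadjusted p = 0.0126, adjusted p = 0.265), and the difference was 0.73 without replicate 1. This depended on the probe set: on its other probe sets replicate 2 lay 0.045 above and 0.40 below the Flattop-positive mean. Rps25 was alike with 11.68, 11.44 and 11.49 against 10.20 and 11.005 (0.93 ± 0.29 SE, unadjusted p = 0.0201, adjusted p = 0.292). It was 0.53 without replicate 1.

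Without Flattop-negative replicate 2, the 14 genes past the adjusted threshold held 8 of the large subunit, Rplp0, Rplp1, Rpl8, Rpl28, Rpl36, Rpl37a, Rpl41 and Rpl10a. The other 6 were of the small subunit, Rpsa, Rps2, Rps9, Rps10, Rps15 and Rps18. Their differences in that fit ran from 1.46 for Rps10 to 4.88 for Rplp0. At an unadjusted p under 0.05 the same fit had 31 members higher (49.2%, background 13.4%, and 45.9% of the other bright genes) and 8 lower (12.7%, background 13.6%, and 6.09% of the other bright genes). Of these 14 genes, Rps2 alone, on its brightest probe set, also reached an unadjusted p under 0.05 without replicate 1 (limma adjusted p = 0.122).

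**Figure D2:**
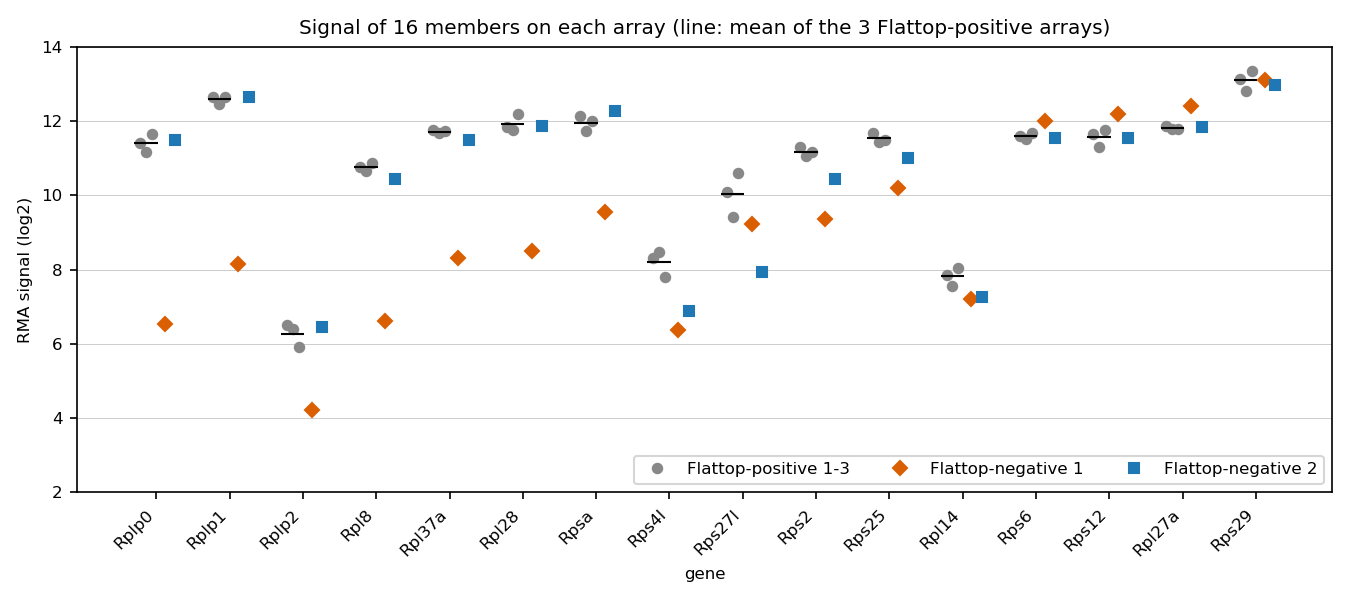
RMA signal (y axis, log2) of 16 genes (x axis) on each array; grey circles are the 3 Flattop-positive arrays with their mean as a line, orange diamonds Flattop-negative replicate 1 and blue squares Flattop-negative replicate 2. Rplp0, Rplp1, Rpl8, Rpl37a and Rpl28 are far below the other arrays on the orange one, Rps4l, Rps2, Rps25 and Rpl14 are low on both Flattop-negative arrays, and Rps6, Rps12 and Rpl27a are highest on the orange array.

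A second set of genes was not low on Flattop-negative replicate 1. Rps6, the substrate of S6 kinase whose phosphorylation is used to follow mTORC1 activity, had 11.61, 11.53 and 11.69 on the Flattop-positive arrays, 12.00 on Flattop-negative replicate 1 and 11.54 on replicate 2. Its difference was -0.17 ± 0.22 (SE, adjusted p = 0.729), and its sign turned with arrays centred on their medians (0.012) and without replicate 1 (0.065). Rps12 had 11.65, 11.30 and 11.77 against 12.19 and 11.54 (-0.29 ± 0.28 SE, adjusted p = 0.640), and 0.038 without replicate 1. Rpl27a had 11.87, 11.79 and 11.80 against 12.40 and 11.86 (-0.31 ± 0.23 SE, adjusted p = 0.552). In all 3 genes replicate 1 was the highest array and replicate 2 lay within or beside the Flattop-positive values.

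Rps19, the gene most often mutated in Diamond-Blackfan anaemia, had 8.45, 8.395 and 8.68 against 9.09 and 8.49 (-0.28 ± 0.25 SE, adjusted p = 0.615), and 0.019 without replicate 1. Rps3a1 had 9.85, 9.65 and 9.92 against 10.42 and 9.64 (-0.22 ± 0.29 SE, adjusted p = 0.725), and 0.17 without replicate 1. Rps29, among the brightest members, had 13.13, 12.82 and 13.35 against 13.12 and 12.97 (0.05 ± 0.23 SE, adjusted p = 0.924), a difference below the spread of the Flattop-positive arrays that turned after cyclic loess (-0.30). Rpl38, whose loss disturbs the patterning of the axial skeleton in mice, had 12.11, 11.88 and 11.96 against 11.57 and 11.74. Both Flattop-negative arrays were just below the Flattop-positive ones (0.33 ± 0.19 SE, adjusted p = 0.473), but the sign turned after cyclic loess (-0.065). Rpl12 was highest on replicate 1, with 4.58, 4.84 and 4.503 against 5.74 and 4.78, close to the floor (-0.62 ± 0.33 SE, adjusted p = 0.445).

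Flattop-negative replicate 2 on its own was close to the Flattop-positive arrays. The median member lay 0.11 below their mean on that array, against 0.52 below for the other bright genes and 0.08 above for all genes. It fell inside the range of the Flattop-positive arrays for 27 members (42.9%, background 30.4%, and 22.4% of the other bright genes). Below that range it fell for 28 (44.4%, background 28.7%, and 63.8% of the other bright genes). It was above the range for 8 (12.7%, background 40.9%, and 13.8% of the other bright genes). In 3 members it lay at least 1 unit below the Flattop-positive mean (4.76%, background 8.04%, and 24.4% of the other bright genes). These were Rps27l (-2.09), Rps4l (-1.302) and Rpl34 (-1.29). Rpl34 had 8.29, 8.29 and 8.27 on the Flattop-positive arrays, 8.87 on Flattop-negative replicate 1 and 6.995 on replicate 2, so the Flattop-negative arrays lay on opposite sides. Without replicate 1 its difference was 1.29, and without replicate 2 it was -0.59. Its sign over all 5 arrays (0.35) turned after repeated quantile normalisation (-0.028) and after cyclic loess (-0.088). Replicate 2 was the lowest of the 5 arrays for 10 members (15.9%, background 20.1%, and 37.1% of the other bright genes).

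Of the 6 genes at an unadjusted p under 0.05 over all 5 arrays, 3 are relatives or partners of ribosomal proteins rather than core members. Rps4l, a paralogue of the X-linked small subunit gene Rps4x, had 8.32, 8.48 and 7.80 on the Flattop-positive arrays, 6.38 on Flattop-negative replicate 1 and 6.90 on replicate 2. Both Flattop-negative arrays lay below all Flattop-positive ones (1.56 ± 0.30 SE, 2.95-fold, unadjusted p = 0.00241, adjusted p = 0.208), and the difference was 1.302 without replicate 1 and 1.82 without replicate 2. Its second probe set, with a lower signal, had a difference of 0.87. Rps4x itself had 11.10, 10.95 and 11.49 against 10.53 and 11.27 (0.28 ± 0.31 SE, adjusted p = 0.674), with a negative sign without replicate 1 (-0.086), after repeated quantile normalisation (-0.10) and after cyclic loess (-0.13).

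Rps27l, a p53-responsive paralogue of Rps27, had 10.09, 9.43 and 10.60 against 9.22 and 7.95. Replicate 2 was the lower of the Flattop-negative arrays here (1.46 ± 0.51 SE, unadjusted p = 0.0309, adjusted p = 0.318), with 2.09 without replicate 1 and 0.82 without replicate 2. Rps19bp1, a nucleolar protein that binds Rps19 and is no ribosomal protein itself, had 7.65, 7.31 and 7.47 against 6.25 and 7.02 (0.84 ± 0.29 SE, unadjusted p = 0.0299, adjusted p = 0.317), and 0.45 without replicate 1. Rpl14, the sixth gene beside Rps2 and Rps25, had 7.85, 7.56 and 8.04 against 7.21 and 7.25. Its Flattop-negative arrays differed by 0.04 and both lay below the Flattop-positive ones (0.59 ± 0.22 SE, unadjusted p = 0.0398, adjusted p = 0.339).

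Tissue-restricted paralogues were at the floor. Rpl10l and Rpl39l, known from testis, and Rpl3l, known from heart and skeletal muscle, were under the olfactory receptor floor on each array, between 2.82 and 4.36, so no sizes are read from them. Rpl39l and Rpl3l, with the retrogene Rps23rg1 at 4.31 to 5.15, were the 3 members lower in Flattop-positive arrays without overlap. Rpl7l1, a nucleolar relative of Rpl7, had 6.81, 6.38 and 6.09 against 6.21 and 5.75 (0.45 ± 0.29 SE, adjusted p = 0.513). Rpl7 itself had 11.02, 10.81 and 11.04 against 10.02 and 10.74 (0.58 ± 0.27 SE, adjusted p = 0.406), and 0.22 without replicate 1. Rpl22 had 7.54, 7.52 and 7.37 against 7.08 and 7.22 (0.33 ± 0.19 SE, adjusted p = 0.466), with a sign that turned after cyclic loess (-0.048). Rpl36a had 10.68, 10.54 and 10.85 against 10.51 and 10.59 (0.14 ± 0.19 SE, adjusted p = 0.747), with a negative sign after repeated quantile normalisation (-0.31) and after cyclic loess (-0.28).

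Ribosomal protein genes have many processed copies in the genome, and a probe set may pick up more than 1 of them. The 63 genes had 219 single-symbol probe sets, up to 14 for 1 gene (Rps12), and 38 genes had probe sets with distinct values. On Flattop-negative replicate 2 the probe sets of a gene differed from each other by a median of 0.16 in their distance to the Flattop-positive mean, and at most by 0.79. On Flattop-negative replicate 1 they differed by a median of 1.13 in their distance to the other 4 arrays, and by up to 3.07. That largest spread was in Rpl27a, whose 9 probe sets ran from -2.50 to 0.57. In Rps15, named after its values were seen, 3 probe sets ran from -4.27 to -1.65, while Rpl28 with 5 probe sets was tight, from -3.76 to -3.39.

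Across several probe sets, 24 of the 38 genes were low on replicate 1 in every one, 5 were high in every one and 9 had both signs. The probe sets that differed in the sign of the whole comparison belonged to 10 genes, Rpl21, Rpl23, Rpl23a, Rpl27, Rpl27a, Rpl7a, Rps12, Rps21, Rps29 and Rps6. With the lowest in place of the highest mean probe set per gene, Rpl27a had a difference of 1.34 instead of -0.31, Rpl7a 0.90 instead of -0.18 and Rps21 0.74 instead of -0.21. The members' median was then 0.74. For these genes the direction of the comparison therefore depended on the probe set.

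**Figure D3:**
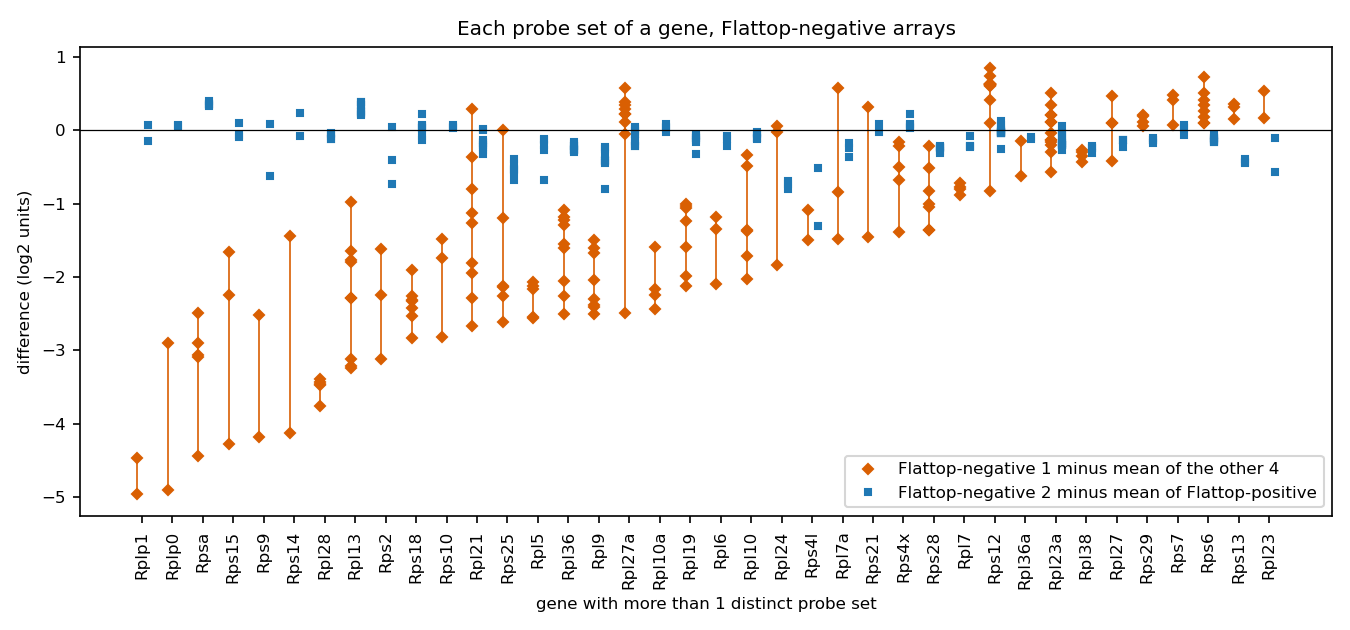
Difference in log2 units (y axis) for each probe set of the 38 genes with more than 1 distinct probe set (x axis). Orange diamonds, joined by a line within a gene, give Flattop-negative replicate 1 minus the mean of the other 4 arrays and spread by up to 3.07 within a gene; blue squares give Flattop-negative replicate 2 minus the Flattop-positive mean and spread by at most 0.79.

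Other genes of protein synthesis were taken from lists by role, and their counts are at an unadjusted p under 0.05 unless stated, with 0 past the adjusted threshold in every list. At the unadjusted threshold the background was 8.48% of all genes higher and 5.37% lower. Fau, which encodes a small subunit protein fused to a ubiquitin-like one, was measured as the only ribosomal protein with another name. It had 11.30, 11.23 and 11.33 against 8.99 and 11.11, low on replicate 1 like many members (log2 difference 1.24, adjusted p = 0.421). Of 37 initiation factors, 10 lay higher and 0 lower, with a median of 0.49. Eif3b had 7.43, 7.42 and 7.72 against 5.95 and 6.10, so both Flattop-negative arrays were low (difference 1.503). Eif2b5, of the exchange factor that the stress response inhibits, had a difference of 1.38, and Eif1b 1.44. Of 13 elongation and release factors, 1 lay higher and 1 lower, with a median of 0.00. These were Eif5a (0.79), the hypusine-bearing factor, and the elongation factor kinase Eef2k (-0.84, but 0.14 from its lowest probe set). Eef1d did not reach that threshold (0.45).

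Of 93 ribosome assembly factors, 12 lay higher and 0 lower, with a median of 0.28. Imp4, of the small subunit processome, had 7.45, 7.35 and 7.42 against 5.83 and 6.32, and its difference was 1.34. Tsr2, which escorts Rps26 to the nucleus, had 1.05, and the nucleolar methyltransferase Fbl 0.98 (-0.20 from its lowest probe set). In this list replicate 2 was the low array: its median lay 0.57 below the Flattop-positive mean and it was the lowest of 5 arrays for 57 of 93 genes, while replicate 1 was the lowest for 23 (backgrounds 20.1% and 24.1%). Of 15 genes of mTORC1 and TOP control, 3 lay higher and 0 lower, with a median of 0.57. They were Tsc1 (0.68) and Tsc2 (0.75), which restrain mTORC1, and Eif4ebp2 (1.07), a repressor of cap-dependent initiation. Of 9 transcription factors of ribosome genes, 0 reached the threshold in limma and 0 the adjusted one. Max had 0.81, Mybbp1a 0.57 and Tbpl1 0.45. Of 10 nascent chain and ribosome rescue factors, 1 lay higher, the rescue factor Pelo (0.68). Zfp598, which marks collided ribosomes, had 1.05 and Naca 0.68, both low mainly on replicate 1 (by 1.82 and 1.15).

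The ribosome of mitochondria is built from a separate set of proteins, and its genes showed other values on the Flattop-negative arrays. Of 77 mitochondrial ribosomal protein genes, 30 lay higher and 0 lower in Flattop-positive arrays (backgrounds 8.48% and 5.37%), with a median of 0.72 against 0.51 for the cytosolic genes. Their median on Flattop-negative replicate 2 lay 1.02 below the Flattop-positive mean, against 0.11 below for the cytosolic genes. Replicate 2 was the lowest array for 56 of the 77 mitochondrial genes and for 10 of the 63 cytosolic ones, whereas replicate 1 was the lowest for 18 and 39 (backgrounds 20.1% and 24.1%). Mrpl34 had 7.41, 7.16 and 7.20 against 5.44 and 5.40, Mrps26 7.05, 6.92 and 6.83 against 5.27 and 5.14, and Mrps21 9.49, 9.30 and 9.37 against 6.70 and 7.47. In these 3 genes both Flattop-negative arrays were low. These differences between the gene sets are descriptions and were not tested.

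**Figure D4:**
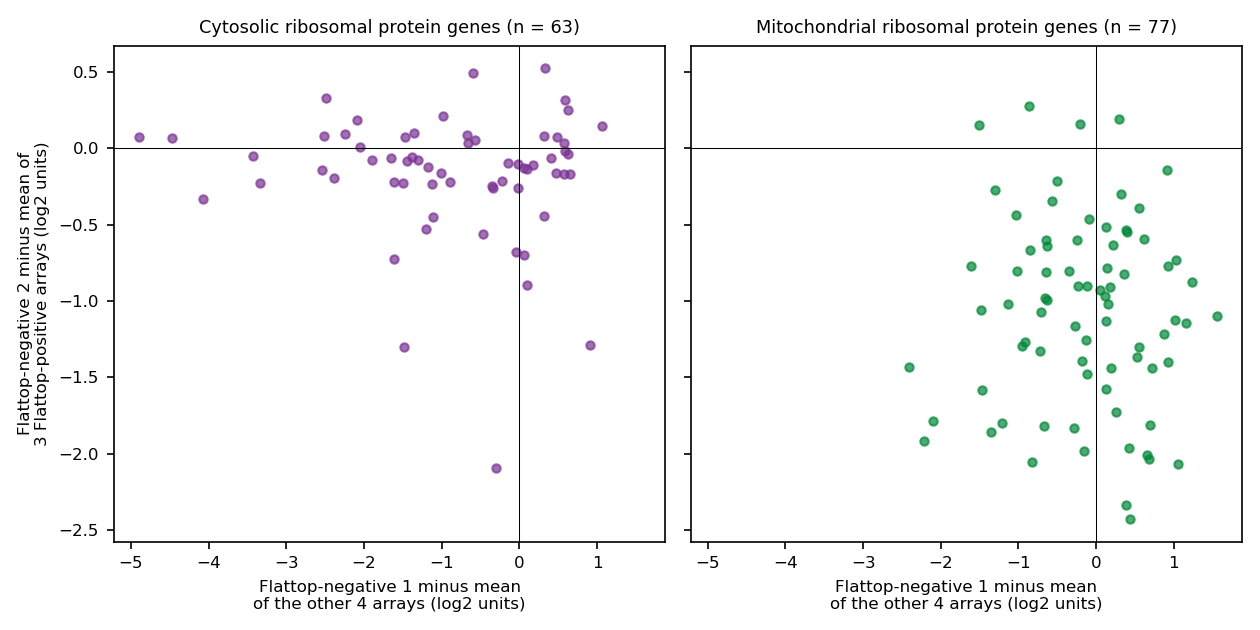
Each point is 1 gene, at its value on Flattop-negative replicate 1 minus the mean of the other 4 arrays (x axis, log2 units) and on Flattop-negative replicate 2 minus the mean of the Flattop-positive arrays (y axis, log2 units). The 63 cytosolic genes spread along the x axis at a median height of -0.11, and the 77 mitochondrial genes lie lower, at a median height of -1.02.

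Markers of cell types differed between the same arrays. All 8 β-cell markers were above 0 in the comparison, as were 8136 of all 19938 genes and 465 of the 558 other bright genes. Of the markers, Ins2 (0.18) and Iapp (0.095) overlapped between the groups. The summed log2 signal of the 8 was 80.7 to 81.7 on the Flattop-positive arrays and 73.7 and 73.1 on the Flattop-negative ones. For the 4 δ, PP and ε markers that sum was 35.3 to 36.2 on the Flattop-positive arrays, 27.3 on Flattop-negative replicate 1 and 39.5 on replicate 2, with Sst at 8.08 on replicate 1 and between 12.32 and 13.19 elsewhere. The 4 α-cell markers summed to 35.3 to 36.5, 33.1 and 38.6. Gcg lay between 12.81 and 13.39 on all arrays, while Ttr was 9.69 on replicate 1 and 12.27 to 12.67 elsewhere. Irx1 and Irx2 had 5.12 and 5.25 on replicate 1, against 4.92 to 5.965 and 5.30 to 6.57 elsewhere. The 7 acinar markers summed to 28.4 to 30.9 on the Flattop-positive arrays and to 32.1 and 37.7 on the Flattop-negative ones. Those of 8 macrophage and immune genes gave 36.8 to 38.9, then 36.2 and 45.9, and those of 6 stellate genes 27.1 to 29.0, then 28.6 and 34.7. The 5 duct markers gave 27.1 to 29.1, then 24.4 and 30.0, and the 5 endothelial ones 18.0 to 18.3, then 18.9 and 20.9. The high sums on replicate 2 included Lyz2 at 9.41, against 3.36 to 4.58 elsewhere. C1qa was the only 1 of the 8 macrophage and immune genes with a difference above 0. It had 7.145, 6.98 and 6.02 on the Flattop-positive arrays against 4.95 and 5.84 on the Flattop-negative ones. The pan-leukocyte gene Ptprc and the macrophage gene Adgre1 were below the floor on all 5 arrays. So were 4 of the 5 endothelial markers (Tek, Plvap, Kdr and Cdh5), Cel and Cpb1 among the acinar ones, Cftr among the duct ones and Pdgfrb among the stellate ones. The floor itself was higher on the Flattop-negative arrays. The part of these cell types in the values of the ribosomal genes was not tested.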

How the data were processed

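The deposited table holds 1 log2 signal per probe set and array, which the authors computed by RMA (Expression Console 1.3.0.187 of Affymetrix, according to the submitters' processing notes); the genome build was not given in the sources used here. miRNeasy Micro columns gave the RNA, which Ovation PicoSL reagents amplified, per the labels' protocols. Of 35556 probe sets, 21789 listed 1 gene symbol, 1621 several and 12146 none; array medians lay at 4.74 to 4.98. Of the single-symbol probe sets, 21698 were found in the GRCm38.p6 gene table by ID, and 0 symbols changed. The highest mean probe set per gene was kept (19938 genes). The number of arrays limits the precision.

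limma 3.58.1 in R 4.3.3 was fitted with group as the only term, moderated variances, two-sided tests and Benjamini-Hochberg adjustment over all genes; the model was tested on simulated data. Differences are Flattop-positive minus Flattop-negative. Genes named were the largest and smallest differences, the smallest p, the extremes on Flattop-negative replicate 1, paralogue pairs, a fixed set of members, genes whose probe sets disagree in sign and up to 3 genes per pathway list. The members and lists were chosen with earlier results of these data known. The alternatives tried were other normalisations, probe set rules and variance models, a replicate block, removal of dim genes and removal of each array in turn. Start sequences came from RefSeq. pandas 2.3.3 and matplotlib 3.10.9 were used for tables and plots.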

Additional observations from a re-analysis of the deposited data

How the results depend on the processing

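With 5 arrays, only large differences can pass. Of 942 pairs of a named gene and an alternative, 876 kept direction and side of the threshold, 14 came to pass it and 52 turned direction, in 23 of 63 named genes. The labels number replicates in both groups, but these numbers are shared by 2 pairs only. Deviations from the group means correlated at 0.18 for number 1 and at -0.14 for number 2 across all genes. With 2 Flattop-negative arrays their deviations mirror each other, so these correlations cannot decide whether the samples are paired. With the replicate block, Rpl10l (0.18), Rpl27 (-0.022) and Rps29 (-0.072) turned, and 3 members instead of 6 lay higher at an unadjusted p under 0.05. These were 4.76% of the members, where 6.98% of all genes and 23.5% of the other bright genes lay higher. Leaving out each Flattop-positive array in turn gave 2 to 5 members higher and 0 to 1 lower at that p, and 0 past the adjusted threshold. Over all genes these fits had 4.66% to 7.71% higher, 1.34% to 3.15% lower and 0% past the adjusted threshold. Leaving out any 1 of the 5 arrays gave medians of 0.11 to 0.66. It gave 20 to 41 members higher and 4 to 16 lower without overlap. The extremes came without Flattop-negative replicate 2 (31, 8, 14, 0.66, 41 and 16) and, for the median, without replicate 1 (0.11, with 8 lower without overlap); without Flattop-positive replicates 1 and 3 the higher counts at that p were 2 and 3.

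Over all genes, leaving out each array in turn gave 15.6% to 29.3% higher and 23.6% to 40.9% lower without overlap. For the other bright genes these shares were 41.0% to 63.8% and 2.15% to 20.1%. Repeated quantile normalisation gave 3 members higher and 1 lower at an unadjusted p under 0.05 (5.58% and 2.97% of all genes), with a median of 0.26. Without overlap 11 were higher and 6 lower (13.3% and 11.6% of all genes, 23.5% and 9.86% of the other bright genes). Centred arrays gave 14 higher at that p (12.6% of all genes), a median of 0.69, and 32 higher and 0 lower without overlap. Cyclic loess gave 2 and 2 (5.09% and 3.18% of all genes), a median of 0.19, and 3 and 14. An intensity trend gave 2 lower at that p (8.65% of all genes), and leaving out dim genes gave 1 lower without overlap (9.95% of all genes kept). The lowest mean probe set, an alternative chosen after seeing the data, gave a median of 0.74. The cause of these moves was not tested.

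Genes turned on repeated quantile normalisation were Rpl10l (0.28), Rpl27 (-0.18), Rpl34 (-0.028), Rpl36a (-0.31) and Rps4x (-0.10). Cyclic loess turned Rpl10l (0.25), Rpl22 (-0.048), Rpl23a (-0.15), Rpl27 (-0.37), Rpl34 (-0.088), Rpl36a (-0.28), Rpl38 (-0.065), Rps29 (-0.30) and Rps4x (-0.13). Centring turned Rpl10l (0.17), Rpl23 (0.16) and Rps6 (0.012), and array weights Rpl10l (0.062). The mean of a gene's probe sets turned Rpl23 (0.039), Rpl27a (0.081), Rpl7a (0.46) and Rps21 (0.27). The lowest mean probe set turned Eef2k (0.14), Fbl (-0.20), Rpl23 (0.092), Rpl27 (-0.091), Rpl27a (1.34), Rpl7a (0.90) and Rps21 (0.74). Rpl10l is below the floor on all 5 arrays and Rplp2 on Flattop-negative replicate 1, so their values here carry no size, and the turns of Rpl10l no direction. With 1 array left out, ranges that crossed 0 were -0.49 to 0.47 for Rpl10l, -0.14 to 0.11 for Rpl23, -0.054 to 0.56 for Rpl23a, -0.066 to 0.13 for Rpl27, -0.59 to 1.29 for Rpl34, -0.53 to 0.17 for Rpl7a, -0.073 to 4.88 for Rplp0, -0.066 to 4.45 for Rplp1, -0.18 to 2.04 for Rplp2, -0.61 to 0.038 for Rps12, -0.58 to 0.019 for Rps19, -0.072 to 0.19 for Rps29, -0.61 to 0.17 for Rps3a1, -0.086 to 0.65 for Rps4x, -0.40 to 0.065 for Rps6 and -0.33 to 2.41 for Rpsa.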
